A study of Saccharomyces cerevisiae with 48 samples.

Results

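Chromosomes VII and XV are among the long chromosomes of the budding yeast Saccharomyces cerevisiae. Every listed position with chromosome number 7 or 15 was taken, whatever its value, which gave 829 of the 4568 positions in the tables, 417 on VII and 412 on XV. Positions are 2.5 kb apart and follow the sacCer2 build. On VII they run from 2.5 to 1065 kb with the centromere at 497 kb, and on XV from 15 to 1067.5 kb with the centromere at 326 kb. The arms of VII are therefore of similar length, while the right arm of XV is much the longer one.

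The study sequenced total DNA of yeast entering meiosis in synchrony, in 2% potassium acetate at 30 °C, and sampled it from 0 to 4 hr. There were 3 genetic backgrounds, namely wild type (WT), overproduction of DDK (DDK OP) and deletion of TOF1 (tof1∆), and each came as an ARS+ and an ars∆ strain. The ars∆ strains are known to lack replication origins on the left arm of chromosome III, so no deletion of an origin is on VII or XV. Each strain was 1 culture followed through time, which makes 6 cultures, with the ARS+ and ars∆ cultures of a background as its only 2 cultures. The tables hold 42 samples, at 1, 1.5, 2, 2.5, 3, 3.5 and 4 hr, while for the 6 samples at 0 hr no column is listed.

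Before meiosis, each chromosome is copied once in an S phase that starts from many replication origins. Origins near centromeres are known to fire early in budding yeast, and the regions next to telomeres are known to replicate late. DDK, the Cdc7-Dbf4 kinase, is required for origins to fire. Tof1 is part of the complex that travels with the replication fork and is known to help hold DDK there. In a population passing through S phase, DNA copied early reaches a higher copy number sooner than DNA copied late, and the difference is lost again when copying is complete.

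The value at a position was the deposited ratio, a relative copy number that ran from 0.69 to 1.47 on VII and XV. Each ratio was divided by the median of its sample and put on the log2 scale. The replication index of a culture is the mean of these log2 values over 1 to 4 hr, so that above 0 stands for more copies than the median position. A second index is the mean over 2 to 4 hr minus the value at 1 hr, and is called the 1-hr-subtracted index. Across the 213 windows of 10 kb on both chromosomes, the correlation of the index between pairs of cultures ran from 0.26 to 0.478 over the 15 pairs, and that of the 1-hr-subtracted index from 0.437 to 0.697. These correlations are descriptions over windows, which are neighbours on a chromosome and not independent. The tables hold no read counts, so depth cannot be given and values carry no counting interval. No gene or origin is named, because no annotation of the build of the tables was used here.

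The profile alternated between early peaks and late valleys on both chromosomes. With the mean of the 6 cultures smoothed over 7.5 kb to each side, 15 peaks and 15 valleys stood out by at least 1 SD of the smoothed genome profile, which was 0.0368. VII held 8 peaks and XV held 7. This made 7.09 peaks per Mb on VII and XV and 6.09 on the other chromosomes. By arm, the left arm of VII had 3 peaks, its right arm 5, the left arm of XV 2 and its right arm 5. The names early and late go by height against the neighbouring profile, so not every peak lay above 0 nor every valley below it. The valley of XV at 315 kb, 11 kb from the centromere, was at 0.0178 ± 0.0174 (SD, n = 6), above 0 in every culture. The values that follow chose the peaks, so they are descriptions without a test.

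**Figure D1:**
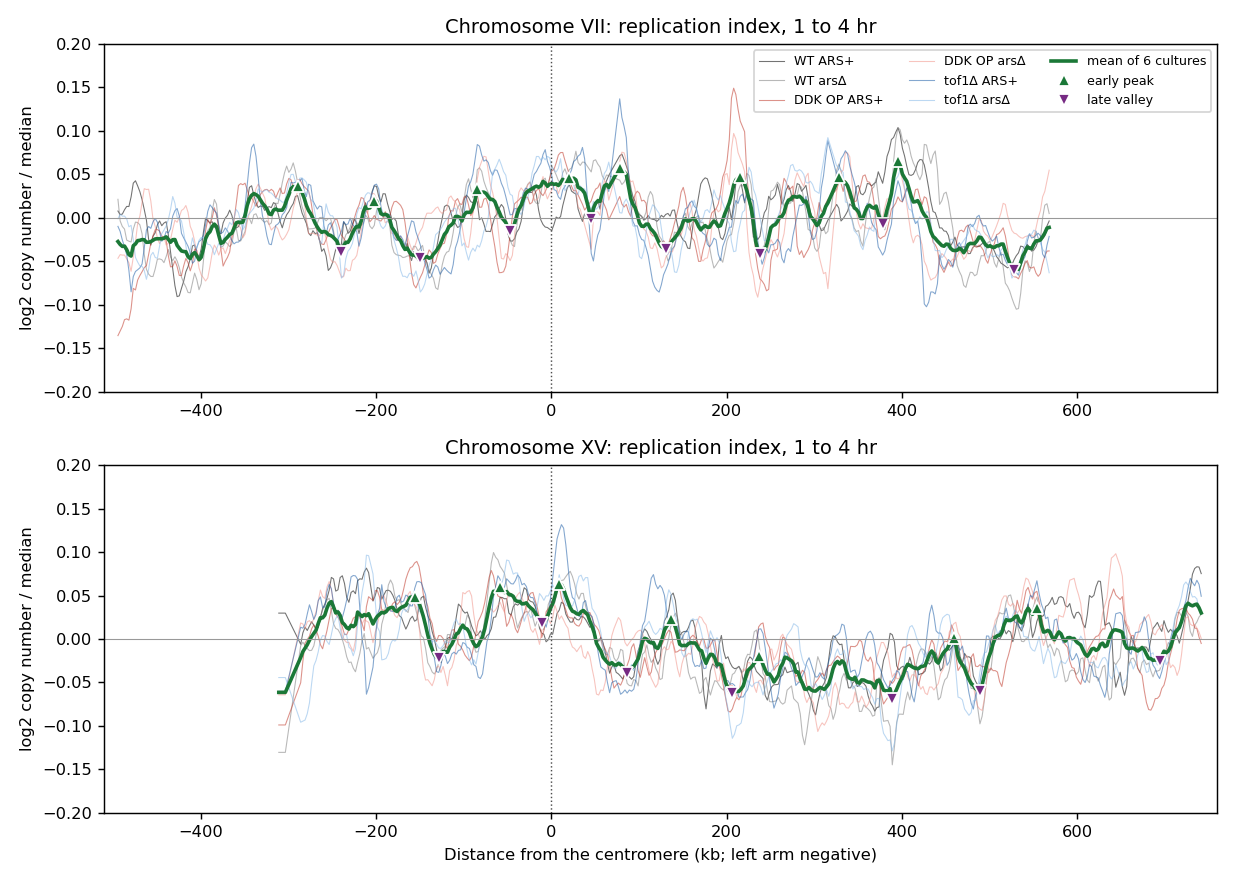
Replication index (log2 of copy number over the sample median, mean of 1 to 4 hr, smoothed) against distance from the centromere in kb on VII and XV, with 1 thin line per culture and a thick line for their mean. Triangles mark the 15 peaks and the 15 valleys, labelled early and late by local height, and the right arm of XV lies below 0 over a long stretch.

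On the left arm of VII, the peaks lay at 207.5, 295 and 412.5 kb. The peak at 207.5 kb had a mean index of 0.0365 ± 0.00681 (SD, n = 6). All 6 cultures lay above 0 there, from 0.0255 in WT ARS+ to 0.0436 in DDK OP ARS+. The peak at 412.5 kb varied more, at 0.0328 ± 0.0392 (SD, n = 6), with tof1∆ ARS+ at 0.0843 and tof1∆ ars∆ at -0.0315. The valley at 347.5 kb, at -0.0468 ± 0.0259 (SD, n = 6), lay below 0 in every culture. The outer part of this arm was low over 14 consecutive windows of 10 kb from 1 to 140000, with a mean of -0.0279 ± 0.0112 (SD, n = 6).

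The right arm of VII carried the highest peak of that chromosome, at 892.5 kb and 395.5 kb from the centromere. Its index was 0.104 in WT ARS+, 0.104 in WT ars∆, 0.0241 in DDK OP ARS+, 0.0681 in DDK OP ars∆, 0.0426 in tof1∆ ARS+ and 0.0479 in tof1∆ ars∆. All 6 lay above 0, and both WT cultures stood above the other 4. After subtraction of 1 hr this order was not kept, since at the matching peak at 885 kb tof1∆ ars∆ was the highest at 0.163 and WT ARS+ was at 0.0894. The 6-culture mean at this peak went from 0.0135 ± 0.0351 at 1 hr to 0.108 ± 0.0316 at 2.5 hr, and was 0.0623 ± 0.0422 at 4 hr (SD, n = 6). The peak nearest the centromere, at 517.5 kb and 20.5 kb from it, was alike in all cultures, from 0.0385 in WT ARS+ to 0.0555 in WT ars∆. The remaining peaks of the arm lay at 575, 712.5 and 825 kb with means of 0.0578 ± 0.0458, 0.0464 ± 0.0402 and 0.0467 ± 0.019 (SD, n = 6). The position at 575 kb is the first after a gap of 4 unlisted positions, and 1 culture led there, tof1∆ ARS+ at 0.137 against 0.00585 to 0.0713 in the other 5. The peak at 825 kb lies beside another gap, of 3 unlisted positions.

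Beyond that highest peak, the end of the right arm of VII was low. The valley at 1025 kb lay below 0 in 6 of 6 cultures, at -0.0481 in WT ARS+, -0.0994 in WT ars∆, -0.0678 in DDK OP ARS+, -0.0176 in DDK OP ars∆, -0.0593 in tof1∆ ARS+ and -0.0657 in tof1∆ ars∆. Its mean was -0.00166 ± 0.0244 at 1 hr and reached -0.123 ± 0.0631 at 3 hr (SD, n = 6). It sat in a run of 15 windows below 0 from 920001 to 1070000 on VII, with a mean of -0.0313 ± 0.00739 (SD, n = 6).

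The left arm of XV was early over most of its length. Its peaks at 170 and 267.5 kb had means of 0.0487 ± 0.0226 and 0.0593 ± 0.0158 (SD, n = 6), and each lay above 0 in every culture. At 267.5 kb the cultures ran from 0.0424 in DDK OP ars∆ to 0.0836 in WT ars∆. The peak next to the centromere of XV, 9 kb into the right arm at 335 kb, had an index of 0.0332 in WT ARS+, 0.0667 in WT ars∆, 0.0607 in DDK OP ARS+, 0.0226 in DDK OP ars∆, 0.124 in tof1∆ ARS+ and 0.0739 in tof1∆ ars∆. Both tof1∆ cultures were the highest there and DDK OP ars∆ the lowest. Its 6-culture mean was 0.00253 ± 0.0334 at 1 hr and 0.114 ± 0.0414 at 3.5 hr (SD, n = 6).

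The right arm of XV held the longest late stretch of both chromosomes. Between 490001 and 830000, 34 consecutive windows had a mean index below 0, and in 19 of the 34 all 6 cultures were below 0. The mean of the stretch was -0.0357 in WT ARS+, -0.0543 in WT ars∆, -0.0281 in DDK OP ARS+, -0.0411 in DDK OP ars∆, -0.0292 in tof1∆ ARS+ and -0.0393 in tof1∆ ars∆. All 6 cultures lay below 0 over it, but the sign of their own mean bounded the stretch, as it did the runs on VII. Its deepest valleys lay at 532.5, 715 and 815 kb, with means of -0.0621 ± 0.0304, -0.0687 ± 0.0568 and -0.0599 ± 0.0259 (SD, n = 6). The valley at 715 kb lay above 0 in WT ARS+ only, at 0.00482. The peaks called inside the stretch, at 562.5 and 785 kb, were local rises that stayed near or below 0, at -0.0191 and 0.000774. Beyond the stretch, the arm was early again at 880 kb, at 0.0357 ± 0.0267 (SD, n = 6).

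Some calls lay close to the prominence threshold. Just inside were the peaks of XV at 267.5 kb, with a prominence of 0.0415, and at 562.5 kb, with 0.043. Just outside were those at 657.5 kb of XV, with 0.0348, and at 780 kb of VII, with 0.0338.

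The relief built up from 2 hr and was largest in the middle of the series. The mean of the 15 peaks minus that of the 15 valleys was 0.0352 ± 0.0168 at 1 hr, 0.0641 ± 0.0218 at 2 hr, 0.103 ± 0.0496 at 2.5 hr, 0.0991 ± 0.026 at 3 hr and 0.0682 ± 0.0123 at 4 hr (SD, n = 6). The cultures reached their highest relief at different times, namely 2.5 hr in both tof1∆ cultures, 3 hr in WT ars∆ and DDK OP ARS+, and 3.5 hr in WT ARS+ and DDK OP ars∆. At the peaks and valleys called on the 1-hr-subtracted index, described further on, the mean relief was -0.02 ± 0.0181 at 1 hr and 0.0873 ± 0.0428 at 2.5 hr (SD, n = 6). That list was chosen on a rise from 1 hr, so its low relief at 1 hr is no support for a build-up. On it DDK OP ARS+ was highest at 2.5 hr, with the other cultures at the times given. On the first list the relief at 2.5 hr was 0.179 in tof1∆ ARS+ and 0.126 in tof1∆ ars∆, against 0.0386 in WT ARS+, 0.114 in WT ars∆, 0.101 in DDK OP ARS+ and 0.0611 in DDK OP ars∆. The 2 tof1∆ cultures lay above the other 4 at that time, tof1∆ ars∆ by little over WT ars∆. At 2 hr DDK OP ARS+ was the highest at 0.102, against 0.0434 to 0.0714 in the other 5. An exact permutation test of 2 cultures against 2 cannot go below p = 0.333, so these orders were not tested, and with 1 culture per strain the pace of a culture and its strain cannot be told apart.

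**Figure D2:**
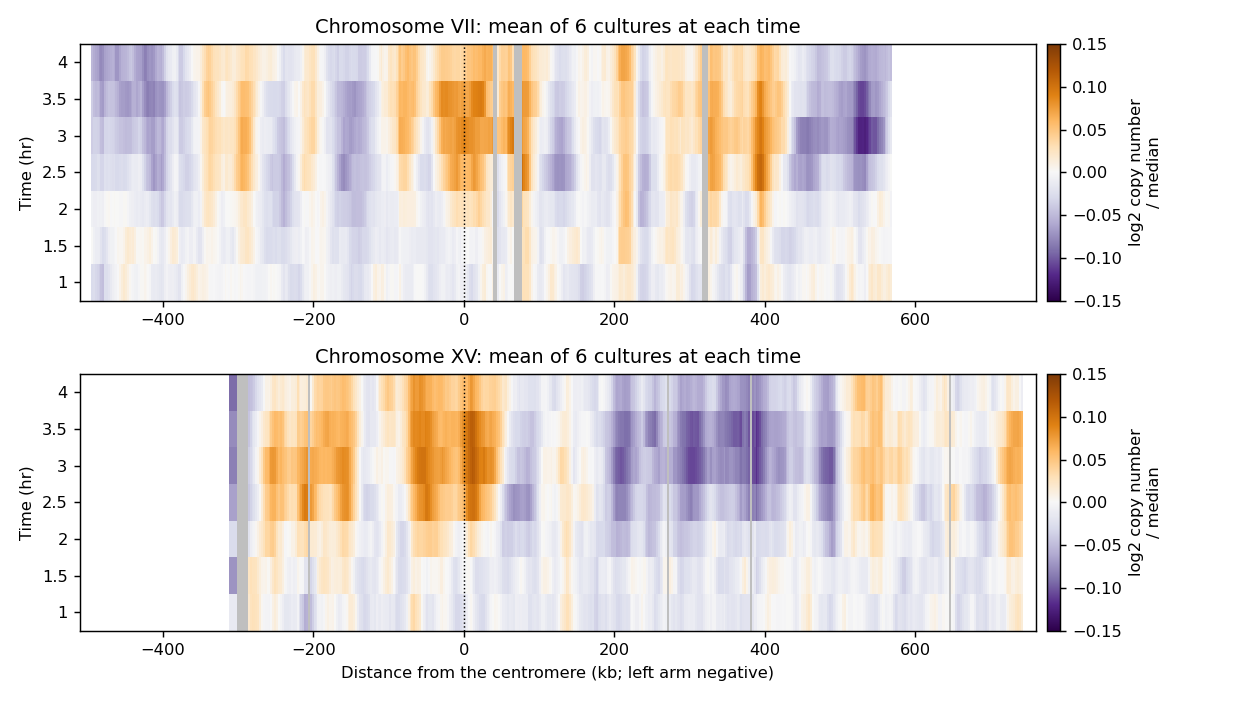
Log2 copy number over the sample median, mean of the 6 cultures and smoothed, at each time in hr (vertical) against distance from the centromere in kb (horizontal) on VII and XV. Orange is above the median, purple below it and grey marks unlisted positions; contrast is faint at 1 hr and strongest at 2.5 to 3.5 hr.

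Peaks were also called in 4 cultures and read in the background left out, so that the values did not choose the peaks. In each culture, 10 to 15 of 15 to 17 such peaks lay above all their flanking valleys. The mean difference of peak and valley ran from 0.024 in WT ARS+ to 0.0599 in tof1∆ ARS+. Every culture thus had a positive mean difference at peaks called without its background.

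The choice of index decided part of the list. With the 1-hr-subtracted index there were 16 peaks and 17 valleys, and 10 of the 15 peaks and 12 of the 15 valleys of the first list had a counterpart within 20 kb. The peak of XV at 117.5 kb was absent from the first list and the highest of the second. There the 1-hr-subtracted index was 0.125 in WT ARS+, 0.0777 in WT ars∆, 0.145 in DDK OP ARS+, 0.0678 in DDK OP ars∆, 0.128 in tof1∆ ARS+ and 0.123 in tof1∆ ars∆. All 6 cultures lay well above 0 at this position, which is the last before a gap of 1 unlisted position. Its log2 value was -0.0555 ± 0.0526 at 1 hr and 0.0929 ± 0.0723 at 2.5 hr (SD, n = 6). These values chose the peak, since a low value at 1 hr raises this index by its definition.

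The reverse held for other calls. The peaks of XV at 462.5, 562.5 and 785 kb had 1-hr-subtracted means of -0.00709, -0.034 and -0.0283, so they did not gain on the median after 1 hr. At 462.5 kb the log2 value was 0.0289 at 1 hr and 0.0139 at 4 hr. The valley of VII at 875 kb had a 1-hr-subtracted mean of 0.083 ± 0.0338 (SD, n = 6), above 0 in 6 of 6 cultures. Its log2 value was -0.067 at 1 hr and 0.0355 at 3 hr.

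Whole arms and positions were compared within each culture, and the 6 differences were tested with an exact two-sided sign-flip test, adjusted over 11 comparisons. The smallest p this test can give with 6 cultures is 0.0312. None of the 11 passed the adjusted threshold of 0.05, and the lowest adjusted exact p was 0.0859. With the 1-hr-subtracted index the lowest was 0.0573. The counts of cultures and the sizes below are therefore given without a claim of significance.

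The arms of XV differed most regularly. The left arm minus the right arm was 0.0372 in WT ARS+, 0.0334 in WT ars∆, 0.0334 in DDK OP ARS+, 0.0294 in DDK OP ars∆, 0.026 in tof1∆ ARS+ and 0.0293 in tof1∆ ars∆. The left arm thus had the higher index in 6 of 6 cultures, with a mean difference of 0.0315 ± 0.00397 (SD, n = 6; exact p = 0.0312, adjusted p = 0.0859). The spread between cultures was far smaller than the difference. On the left arm 11 of 32 windows lay above 0 in all 6 cultures and 0 lay below 0 in all 6, while on the right arm 3 of 74 lay above and 20 lay below. Over all of VII and XV, 12.7% of windows lay above 0 in every culture and 15.5% below, against 13.9% and 12.9% on the other chromosomes.

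This difference between the arms of XV was not there at the start. It was 0.000878 ± 0.00664 at 1 hr, with 3 of 6 cultures above 0, then 0.0228 ± 0.0191 at 2 hr and 0.0589 ± 0.0156 at 3 hr, and 0.0341 ± 0.0197 at 4 hr (SD, n = 6). From 2.5 hr on, all 6 cultures lay above 0 at each time. The left arm itself was at -0.00927 ± 0.0127 at 1 hr and 0.0378 ± 0.00761 at 3 hr. The right arm was at -0.0101 ± 0.00765 and -0.0211 ± 0.0126 (SD, n = 6). At 1.5 hr DDK OP ARS+ was already at 0.0328 and DDK OP ars∆ at 0.0155, while the WT and tof1∆ cultures lay between -0.0111 and 0.00435. Both DDK OP cultures were the highest at that time, and at 4 hr both tof1∆ cultures were the lowest, at 0.0129 and 0.0165. Neither order held throughout. At 2.5 hr both DDK OP cultures were the lowest, at 0.0278 and 0.0214, and both tof1∆ cultures the highest, at 0.0652 and 0.0648.

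**Figure D3:**
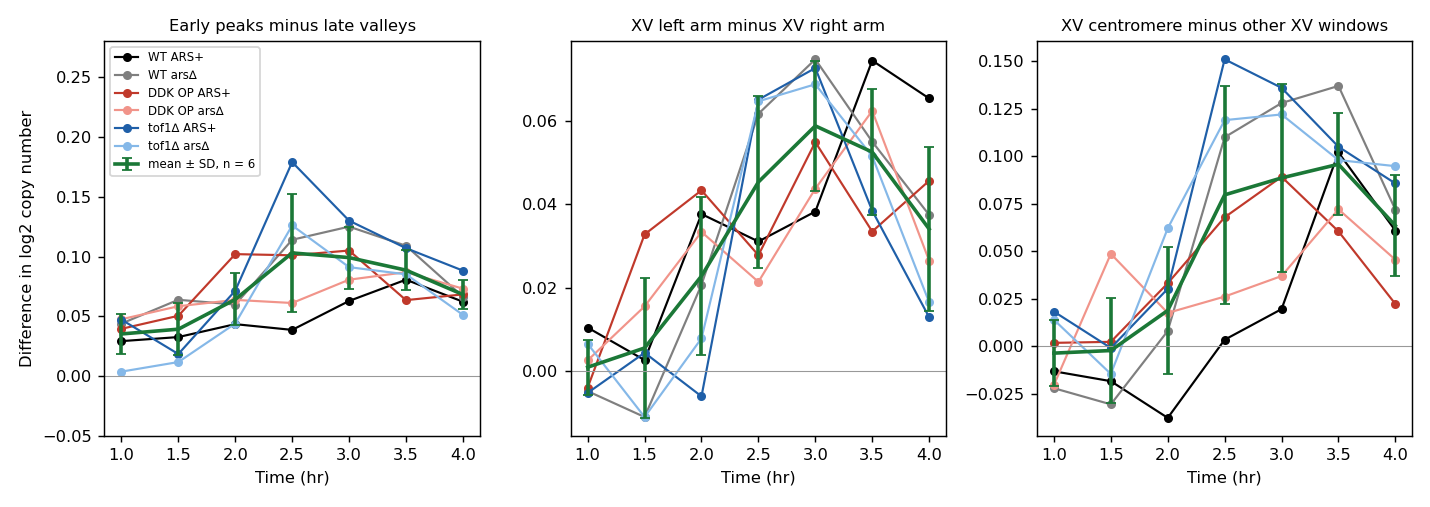
Differences in log2 copy number by time in hr for each of the 6 cultures, with the mean and SD (n = 6): peaks minus valleys on VII and XV, left minus right arm of XV, and centromere windows of XV minus the other windows of XV. At 1 hr the means are 0.0352, 0.000878 and -0.00355, and at 4 hr each mean is below its highest value.

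On VII the arms differed less. The left minus the right arm was -0.00846 ± 0.00871 (SD, n = 6; exact p = 0.0938, adjusted p = 0.115), below 0 in 5 of 6 cultures, with tof1∆ ARS+ at 0.00652. The arm means of VII were -0.00712 on the left and 0.00134 on the right.

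Both centromere regions had a high index. The windows within 10 kb of the centromere of XV lay above the other windows of XV by 0.0487 ± 0.023 (SD, n = 6), in 6 of 6 cultures (exact p = 0.0312, adjusted p = 0.0859). The single values were 0.0167 in WT ARS+, 0.0575 in WT ars∆, 0.0396 in DDK OP ARS+, 0.0324 in DDK OP ars∆, 0.0751 in tof1∆ ARS+ and 0.0707 in tof1∆ ars∆, so that both tof1∆ cultures were the highest and WT ARS+ the lowest. After subtraction of 1 hr WT ars∆ was the highest at 0.113, with the tof1∆ cultures at 0.0834 and 0.0851, WT ARS+ still the lowest at 0.0428 and a mean of 0.0729 ± 0.0259 (SD, n = 6). At the centromere of VII the difference was 0.0442 ± 0.0259 (SD, n = 6), above 0 in 5 of 6 (exact p = 0.0625, adjusted p = 0.0859). The exception was WT ARS+ at -0.0063, against 0.0434 to 0.0639 in the other 5. With the 1-hr-subtracted index WT ARS+ was at 0.0439, and all 6 cultures lay above 0 at a mean of 0.0697 ± 0.0266 (SD, n = 6). In time, the 6-culture mean at the centromere of VII was -0.00683 at 1 hr and 0.0852 ± 0.0361 at 3 hr, and that of XV was -0.00355 at 1 hr and 0.0958 ± 0.0269 at 3.5 hr (SD, n = 6).

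The mean index at a given distance from the centromere differed between arms. On the left arm of XV the mean index was 0.0343 within 50 kb, 0.0294 from 50 to 100 kb and 0.0154 from 200 to 300 kb. These bins did not form 1 region around the centromere. The run of windows above 0 that holds the centromere of XV went from 250001 to 380000. A separate run above 0 went from 50001 to 180000. The valley at 197.5 kb, at -0.0217 ± 0.0156 (SD, n = 6), lay between the runs. On the right arm of XV it was 0.0337 within 50 kb and -0.0275 from 50 to 100 kb. On VII it was 0.0327 from 50 to 100 kb on the right and 0.0128 on the left. The right arm of XV was thus the only one of the 4 arms with a mean below 0 at 50 to 100 kb.

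**Figure D4:**
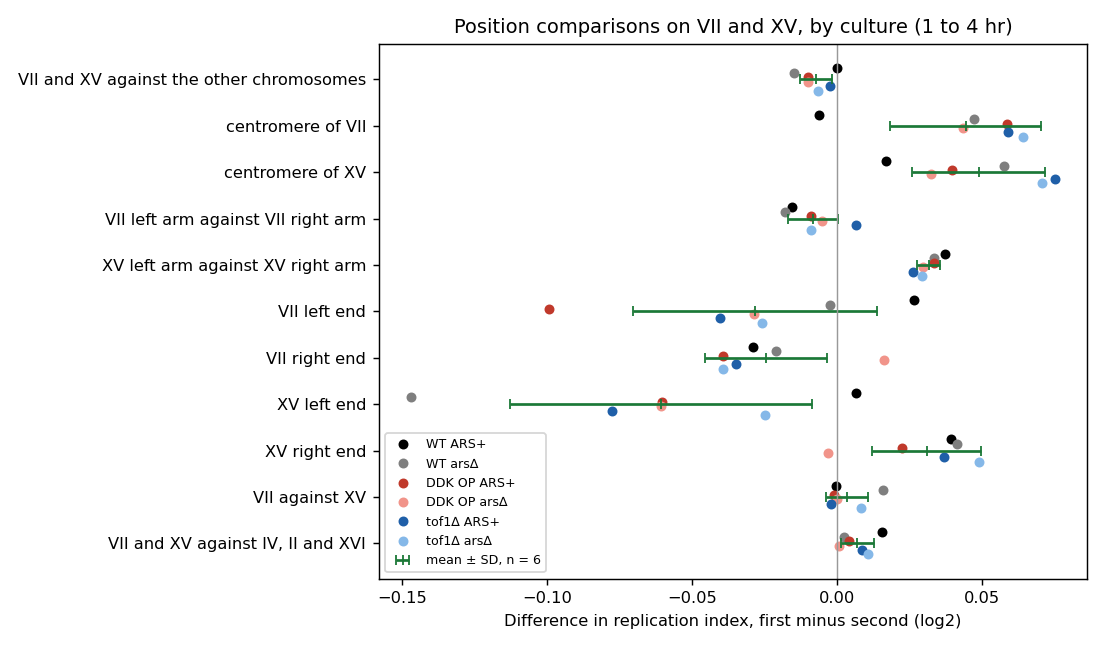
The 11 position comparisons on VII and XV, each as the difference in replication index (log2, first minus second) for the 6 cultures, with the mean and SD (n = 6). Points of the 2 centromere regions and of the XV arms lie to the right of 0 except WT ARS+ at the centromere of VII, at -0.0063.

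The chromosome ends did not all lie on 1 side. The outer 30 kb, counted from the last listed position on the right, was set against the other windows of the same chromosome. The left end of VII was at -0.0285 ± 0.0421 and its right end at -0.0247 ± 0.0211, while the left end of XV was at -0.0609 ± 0.0521 (SD, n = 6), each below 0 in 5 of 6 cultures. The exceptions were WT ARS+ at 0.0264 and 0.00631 for the left ends of VII and XV, and DDK OP ars∆ at 0.016 for the right end of VII. With the 1-hr-subtracted index the right end of VII, at -0.0629 ± 0.0396, and the left end of XV, at -0.0488 ± 0.0375 (SD, n = 6), lay below 0 in 6 of 6. On that index the left end of VII, at -0.0135 ± 0.0305 (SD, n = 6), lay below 0 in only 4 of 6. The left end of XV rests on 2 windows, neither with all 4 positions. In the replication index the right end of XV was at 0.0308 ± 0.0188 (SD, n = 6), above 0 in 5 of 6, with DDK OP ars∆ at -0.00334 as the exception. With 1 hr subtracted it was at 0.0224 ± 0.0279 (SD, n = 6), above 0 in 5 of 6, with DDK OP ARS+ at -0.0199. For the 4 ends the adjusted exact p in the replication index lay between 0.0859 and 0.138. At 3.5 hr the right end of XV was above 0 in 6 of 6 cultures, at 0.0516 ± 0.0177, and the right end of VII below 0 in 6 of 6, at -0.0575 ± 0.0312 (SD, n = 6). At 4 hr the right end of XV was at 0.00656 ± 0.0501 (SD, n = 6), above 0 in 4 of 6. Both DDK OP cultures were then below 0 there, at -0.0784 and -0.0226. The last listed positions lie some way inside the ends of the chromosomes, so the telomeric repeats themselves were not measured.

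As whole chromosomes, VII and XV lay close to the rest of the genome. Their windows were below those of the other chromosomes by a mean of -0.00743 ± 0.00543 (SD, n = 6; exact p = 0.0312, adjusted p = 0.0859), in 6 of 6 cultures, but WT ARS+ was at only -9.04e-05. The 1-hr-subtracted difference had the opposite sign, at 0.00522 ± 0.00497. Against II, IV and XVI, which are long as well, the difference in the replication index was 0.00688 ± 0.00563 (SD, n = 6), above 0 in 6 of 6 (exact p = 0.0312, adjusted p = 0.0859). With the 1-hr-subtracted index it was 0.0145 ± 0.00361 (SD, n = 6), also above 0 in 6 of 6. VII minus XV was 0.00327 ± 0.00717 in the replication index (exact p = 0.5, adjusted p = 0.5), below the spread between cultures.

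The backgrounds were compared window by window with limma across all 1174 windows, with terms for background and for the ars deletion and adjustment over all windows. For DDK OP minus WT, 0 of the 213 windows on VII and XV passed an adjusted p of 0.05, with 0.0852% called over the genome. At an unadjusted p under 0.05 were 14 of the 213 windows, and 68 of the 1174 over the genome. For tof1∆ minus WT, 0 of 213 passed, with 0.341% called over the genome. Here 10 of the 213 had an unadjusted p under 0.05, and 66 of the 1174. For ars∆ minus ARS+, whose deletions lie on another chromosome, 0 of 213 passed, with 0.17% called over the genome. An unadjusted p under 0.05 was found in 7 of the 213, and in 57 of the 1174. The median SE of a background difference was 0.0343, so differences of the size seen between most windows, with a median absolute value of 0.0259 for DDK OP minus WT and 0.0232 for tof1∆ minus WT, could not be told from 0.

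DDK OP minus tof1∆ had the only calls on these chromosomes, 2 of 213 windows, with 0.426% called over the genome (5 of 1174 windows). A count this small does not set VII and XV apart from that share. Both lie on the right arm of VII. At 700001 to 710000 the index was 0.169 in DDK OP ARS+ and 0.109 in DDK OP ars∆, 0.0127 in tof1∆ ARS+ and -0.0491 in tof1∆ ars∆, and 0.02 and 0.00715 in the WT cultures. The DDK OP cultures lay above the other 4, and the difference from tof1∆ was 0.157 (SE 0.0339, limma adjusted p = 0.0166). It was present at 1 hr, when the DDK OP cultures were at 0.112 and 0.0517 and the tof1∆ cultures at 0.0463 and -0.138. After subtraction of 1 hr the difference was 0.0305 (limma adjusted p = 0.954). The window ends just before the peak at 712.5 kb. In the next window, 710001 to 720000, DDK OP was at 0.0592 and 0.0319 and WT at 0.0665 and 0.0723, so DDK OP was not above WT there. The peak value is smoothed over 7.5 kb to each side and so takes in positions of both windows. At the peak the DDK OP cultures were the highest, at 0.111 and 0.0683. WT was at 0.0438 and 0.0371 and tof1∆ at 0.0246 and -0.00657. On the 1-hr-subtracted index the matching peak at 710 kb was highest in tof1∆ ars∆, at 0.0839.

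The other called window, 810001 to 820000 on VII, holds 1 listed position at the edge of a gap. There tof1∆ was the higher, at 0.153 and 0.175, against -0.0431 and -0.0279 in DDK OP and -0.0351 and 0.0737 in WT. The difference of DDK OP minus tof1∆ was -0.2 (SE 0.0348, limma adjusted p = 0.00283). After subtraction of 1 hr it was 0.0181 (limma adjusted p = 0.964). Leaving out any 1 of the 6 cultures ended the call at 700001 to 710000, and leaving out DDK OP ars∆, tof1∆ ARS+ or tof1∆ ars∆ ended that at 810001 to 820000, with adjusted p-values of 0.0556, 0.166 and 0.115.

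**Figure D5:**
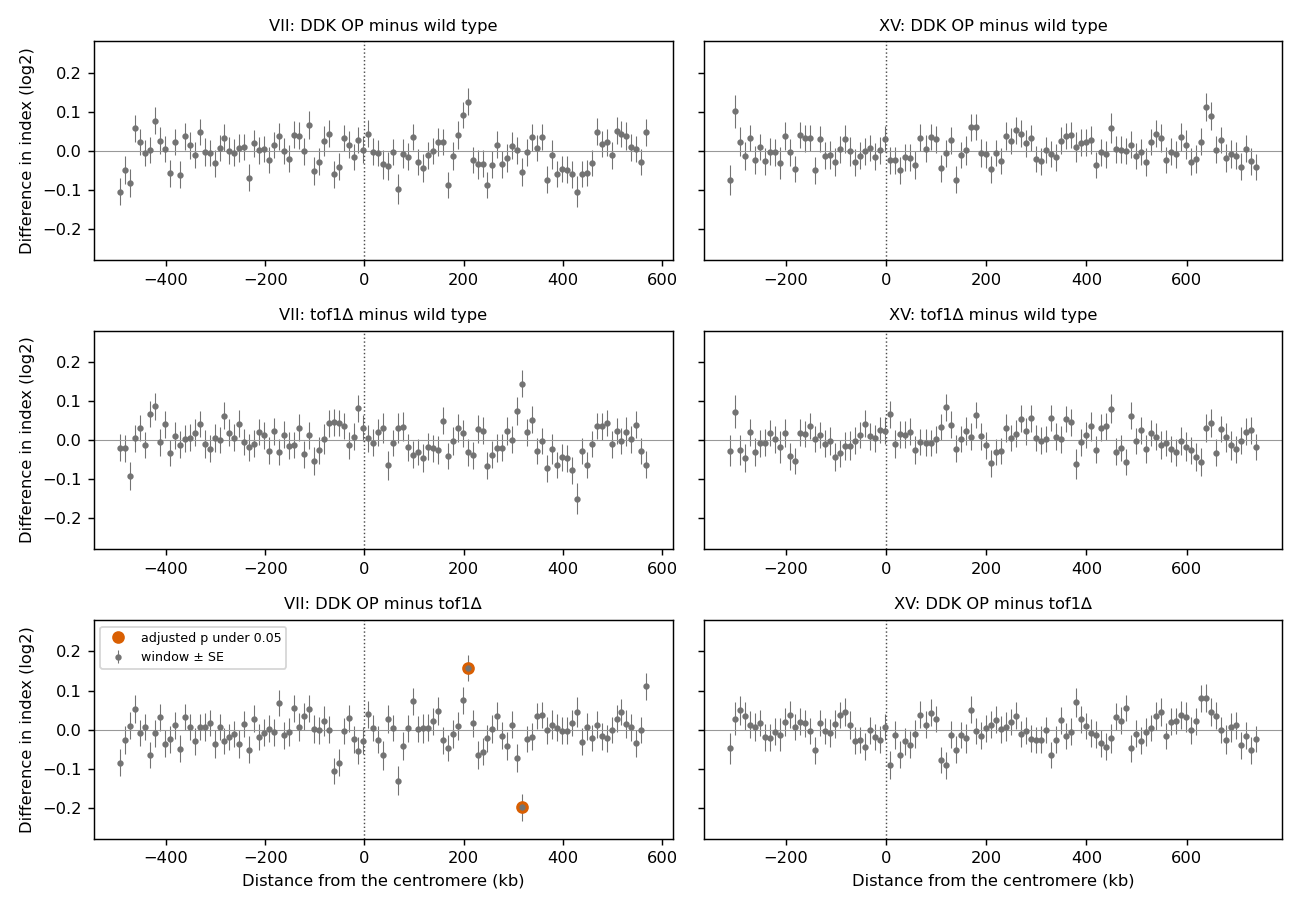
Difference in replication index between backgrounds (log2, with SE from limma) for each 10-kb window against distance from the centromere in kb on VII and XV. The 2 windows past an adjusted p of 0.05 are marked on VII in the comparison of DDK OP with tof1∆, at 0.157 and -0.2.

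The windows of lowest p in the comparisons without a call are given by value. For DDK OP minus WT they were VII 700001 to 710000 at 0.126 (SE 0.0339), XV 960001 to 970000 at 0.112 (SE 0.0362) and VII 1 to 10000 at -0.106 (SE 0.0345). Without DDK OP ARS+, XV 960001 to 970000 was at 0.178 for DDK OP minus WT, and without DDK OP ars∆ it was at 0.0461. DDK OP was then 1 culture, assumed in the fit to vary like the other backgrounds. For tof1∆ minus WT the windows of lowest p were VII 810001 to 820000 at 0.145 (SE 0.0348, limma adjusted p = 0.0532), VII 920001 to 930000 at -0.15 (SE 0.0394, limma adjusted p = 0.12) and VII 20001 to 30000 at -0.0927 (SE 0.0354). With either DDK OP culture left out, VII 810001 to 820000 and VII 920001 to 930000 stayed at 0.145 and -0.15 for tof1∆ minus WT. For tof1∆ minus WT some windows passed in both of these fits, and for DDK OP minus WT some passed without DDK OP ARS+. They lay on VII and XV and on other chromosomes, with DDK OP a single culture. At 920001 to 930000 the WT cultures had 0.045 and 0.115 and the tof1∆ cultures -0.136 and -0.00359. After subtraction of 1 hr the groups overlapped, with WT at -0.0274 and 0.0422 and tof1∆ at -0.0196 and 0.0782, and the difference was 0.0219. For ars∆ minus ARS+ the windows were VII 560001 to 570000 at 0.105 (SE 0.0312), XV 100001 to 110000 at -0.0706 (SE 0.0281) and XV 90001 to 100000 at -0.0696 (SE 0.0279).

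With the 1-hr-subtracted index none of these comparisons had a call on VII and XV. DDK OP minus WT had 0.17% called over the genome, and ars∆ minus ARS+ 0.511%. At an unadjusted p under 0.05 they had 4 and 12 of the 213 windows, against 63 and 46 of the 1174 over the genome. The comparisons tof1∆ minus WT and DDK OP minus tof1∆ each had 0% called over the genome. Their windows at an unadjusted p under 0.05 were 7 and 17 of the 213, against 95 and 69 of the 1174. Leaving out 1 culture gave calls in this index, all in windows with 1 or 2 listed positions. For ars∆ minus ARS+ they were at VII 560001 to 570000, VII 810001 to 820000 and VII 1060001 to 1070000. For DDK OP minus tof1∆ they were at VII 560001 to 570000 and XV 20001 to 30000. The same fits made calls on other chromosomes too, so these calls do not set VII and XV apart. In such fits the single culture left in a background is assumed to vary like the others.

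At the peaks of the first list the backgrounds overlapped. Averaged over the 15 peaks, the index was 0.0316 in WT ARS+, 0.0425 in WT ars∆, 0.0404 in DDK OP ARS+, 0.0334 in DDK OP ars∆, 0.0542 in tof1∆ ARS+ and 0.0229 in tof1∆ ars∆. The 2 tof1∆ cultures were the highest and the lowest of the 6. DDK OP lay above WT at 8 of the 15 peaks, with differences over the 15 from -0.0576 to 0.0493. The tof1∆ mean lay above WT at 9 of 15, with differences from -0.0584 to 0.049. At the 16 peaks of the 1-hr-subtracted index the counts were 9 for DDK OP and 14 for tof1∆, with tof1∆ minus WT from -0.0148 to 0.0803. Averaged over these 16 peaks, that index was 0.061 in tof1∆ ARS+ and 0.0772 in tof1∆ ars∆. It was 0.0334 and 0.0581 in the WT cultures and 0.0565 and 0.0505 in the DDK OP cultures. Both tof1∆ cultures were thus the highest on this list. Those peaks were called on all 6 cultures, so these counts and means are descriptions.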

How the data were processed

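The authors deposited 1 table of ratios per strain, with 7 times from 1 to 4 hr. What the ratios were divided by is not stated. The submitters' processing notes name the aligner BWA and the build sacCer2, with no version of BWA given in the sources used here. Here each ratio was divided by its sample's median, put on the log2 scale, averaged over times within a culture and then over 10-kb windows. Sample medians of the ratios ran from 0.9958 to 1. Of the 213 windows on VII and XV, 102 on VII and 98 on XV hold all 4 positions. Windows were compared with limma 3.58.1 (R 4.3.3; lmFit, eBayes; 2 residual and 29.8 prior degrees of freedom) with Benjamini-Hochberg adjustment over 1174 windows, checked on simulated data. Position comparisons used the exact sign-flip test over cultures. Peaks were the highest point within 20 kb on the smoothed profile.

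The named windows are all those called on VII and XV, or the 3 of lowest p where none was called. All peaks of the first list are named, but only some of its valleys, and only some peaks of the second list. The profile figure marks every peak and valley of the first list. The regions, lists and tests were chosen with earlier results of these data known. P-values measure the spread between cultures of which each strain has 1. The planned subtraction of 0 hr was not run, since the 0 hr samples have no column. The gene table at hand follows another build and was not used.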

Additional observations from a re-analysis of the deposited data

Results flagged for a closer look

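Among the 6 cultures, single values were compared with the rest by Dixon's gap test for the 11 position comparisons, for peaks minus valleys at the 7 times and for the 15 peaks and 15 valleys, 48 sets in all, of which 2 stood apart. Chance sets apart about 1 in 20 such sets. At the centromere of VII, WT ARS+ was at -0.0063 against a median of 0.0528 over the cultures, a gap of 0.707 of the whole range. At the right end of VII, DDK OP ars∆ was at 0.016 against a median of -0.0319, a gap of 0.67 of the range.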

How the results depend on the processing

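Of 331 recomputed values, 281 kept their direction and their side of the threshold or moved within the spread. The number of windows called on VII and XV was the least stable result. For DDK OP minus tof1∆ it was 2, but 0 with 5-kb, 25-kb or 50-kb windows, with 1 hr subtracted and with the mean of 2.5 to 3.5 hr minus that of 1 and 1.5 hr, 1 with windows holding all 4 positions, and 0 to 1 with 1 culture left out. For tof1∆ minus WT it was 1 with the mean of 1.5 to 3 hr, 1 with windows holding all 4 positions and 0 to 2 with 1 culture left out, and for DDK OP minus WT 0 to 2 with 1 culture left out. Each fit with 1 culture left out has 1 background of a single culture, so those counts show instability only. With 1 hr subtracted, VII and XV against the other chromosomes turned to 0.00522 and VII against XV to -0.000826. In the same setting VII 810001 to 820000 turned to 0.0181 for DDK OP minus tof1∆ and to -0.0325 for tof1∆ minus WT, VII 1 to 10000 to 0.0135 for DDK OP minus WT and VII 920001 to 930000 to 0.0219 for tof1∆ minus WT. With 2.5 to 3.5 hr minus 1 and 1.5 hr, these became 0.0595 and -0.156 for VII 810001 to 820000 and 0.0644 for VII 1 to 10000, VII 700001 to 710000 became -0.0366 for DDK OP minus WT and -0.00973 for DDK OP minus tof1∆, VII 20001 to 30000 became 0.00699 for tof1∆ minus WT and XV 100001 to 110000 0.00589 for ars∆ minus ARS+. The causes were not tested. There were 24 peaks and 23 valleys at a prominence of 0.5 SD and 9 valleys at 1.5 SD. The left end of XV has no window with all 4 positions and no value there. Depth is unknown, and the number of cultures limits the precision.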
